A study of Homo sapiens with 6 samples.

Results

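The genes examined here encode the enzymes that build the heparan sulfate linker and polymerise the chain. They were taken as every probe set that the platform annotation assigns to exactly 1 of 10 gene symbols: XYLT1, XYLT2, FAM20B, B4GALT7, B3GALT6, B3GAT3, EXTL2, EXTL3, EXT1 and EXT2. This gave 22 of 54613 tested probe sets and 10 of 19775 genes, with 1 to 3 probe sets per gene. The data are 6 Affymetrix arrays of MDA-MB-231, a human cell line from breast cancer with a mesenchymal character. Per the labels, 3 arrays came from cells that received an HS3ST2 expression plasmid and 3 from cells that received a control vector. Not given in the sources used here are the time after transfection, any selection or cloning, and the promoter of the plasmid. The replicates are described as independent, but the term is not defined and separate cultures are not mentioned. All p-values here are thus based on variation from array to array, which may be technical.

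Heparan sulfate is a sulfated sugar chain carried by core proteins at the cell surface and in the matrix, where it binds growth factors, chemokines and their receptors. Synthesis begins in the Golgi with a short linker, in which a xylose, a pair of galactoses and a glucuronic acid are added in turn to a serine of the core protein. EXTL3 then adds the first N-acetylglucosamine, which commits the linker to heparan sulfate rather than chondroitin sulfate, and a complex of EXT1 and EXT2 extends the chain. Sulfotransferases modify the chain afterwards, and HS3ST2, a 3-O-sulfotransferase often silenced by methylation in breast cancer, acts among the last of them. The comparison between HS3ST2 and control arrays shows how far the transcripts of the earlier enzymes differed in these cells.

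Values are log expression after RMA, with the base taken as 2 because it is not given. The deposited table holds them after subtraction of the 6-array median of each probe set. A value of 0 is therefore the middle of the 6 arrays and not a level, so no gene's level can be set against another's, and whether marker genes of the line were present could not be checked. The single HS3ST2 probe set gave no check of the labels, since whether it matches the plasmid transcript is not stated. It was at 0.16, 0.037 and -0.037 in the HS3ST2 arrays, against -0.22, 0.17 and -0.11 in the control arrays (difference 0.11 ± 0.11 log2, SE, n = 3 per group, limma adjusted p = 0.597). The directions given here therefore rest on the labels alone. The median of 6 ribosomal RNA control probe sets was 0.017, 0.16 and 0.74 in the HS3ST2 arrays, against -0.20, -0.060 and -0.29 in the control arrays (two-sided exact permutation p = 0.1, the lowest value possible with 3 arrays a group). Without HS3ST2 replicate 3, the array highest in this measure, FAM20B (-0.42), EXT2 (-0.36) and EXTL3 (-0.26) were still called lower by limma, and XYLT2 (-0.18) was not. The remaining HS3ST2 arrays (0.017 and 0.16) still lay above all control arrays, so this measure and the group cannot be told apart. Its part in the results below was not tested. Of the mesenchymal line markers 1 of 8 was higher and 2 were lower, of luminal markers 3 of 10 were higher, of leukocyte markers 3 of 6 measured were higher, and of 8 fibroblast markers none was called. The called leukocyte markers were ITGB2 (1.11 ± 0.049 log2, SE), LCP1 (0.78 ± 0.053) and CORO1A (0.37 ± 0.072), with limma adjusted p = 9.07e-06, 5.28e-05 and 0.00754, and each stayed called whichever array was left out. Of the others, PTPRC, named after its value was seen, was at -0.076 ± 0.069 (adjusted p = 0.487), and the remaining 2 were at 0.14 and 0.043 without passing. The called luminal markers were CDH1 (0.42), ERBB3 (0.38) and KRT18 (0.26), and the called mesenchymal markers were FN1 (0.46), VIM (-0.20) and MSN (-0.18). The calls of CDH1, ERBB3 and FN1 held whichever array was left out, though some of their probe sets were not called alone. Of the 6 comparisons that left out an array, KRT18 was called in 2, VIM in 1 and MSN in 1. No single probe set of KRT18, VIM or MSN was called. The mean of the leukocyte list was 0.19 to 0.24 in HS3ST2 arrays, against -0.20 to -0.17 in control arrays, and that of the luminal list was 0.036 to 0.11 in HS3ST2 arrays, against -0.10 to -0.022 in control arrays. The part of these cell type markers in the results below was likewise not tested.

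FAM20B, the kinase that phosphorylates the linker xylose, and EXT2, which together with EXT1 polymerises the chain, fell most among the 10 genes, to 76.1% and 76.9% of control on the linear scale. EXTL3 and XYLT2 fell by smaller amounts (to 83.2% and 86.8%), no member rose, and 6 did not pass the threshold. A gene counts as called where limma's adjusted p (Benjamini-Hochberg, over all 19775 genes) is under 0.05. Of all genes, 13.0% were called lower, 11.5% higher and 24.5% in either direction. The 4 called members are 40% of the 10. The shares over all genes take in genes of any level, since centring left no level to filter on. In XYLT2, FAM20B, B3GAT3, EXTL3 and EXT2 every HS3ST2 array lay below every control array, so 50% of the members were separated downwards, while 20.9% of all genes were. No member was separated upwards, where 19.5% of all genes were, and 40.4% of all genes were separated in either direction. The median difference of the 10 genes was -0.13 log2, against 0.0088 over all genes, and 8 of the 10 differences were negative. A called change among all genes had a median size of 0.345 log2, and FAM20B and EXT2 exceeded in size 90.2% and 89.4% of all genes.

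The mean of the 10 genes was -0.076, -0.068 and -0.090 in HS3ST2 arrays 1 to 3, against 0.11, 0.054 and 0.076 in control arrays 1 to 3. The arrays of each kind therefore lay close together, and the groups did not overlap in this mean. By probe set, 7 of 22 were called lower and none higher, or 31.8%, where 8.98% of all 54613 probe sets were called lower, 7.90% higher and 16.9% in either direction. The groups did not overlap in 11 of the 22, all lower in HS3ST2 arrays, where 17.4% of all probe sets were separated downwards, 16.6% upwards and 34.1% in either direction. The 7 were both probe sets of FAM20B, both of EXT2, 2 of the 3 of XYLT2 and 1 of the 3 of B3GALT6. Leaving out 1 array lowered this count to between 3 and 6. It was 3 without HS3ST2 replicate 2 or without control replicate 2, and 4 without HS3ST2 replicate 1, HS3ST2 replicate 3 or control replicate 3. The count of genes was 3 or 4 throughout.

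**Figure D1:**
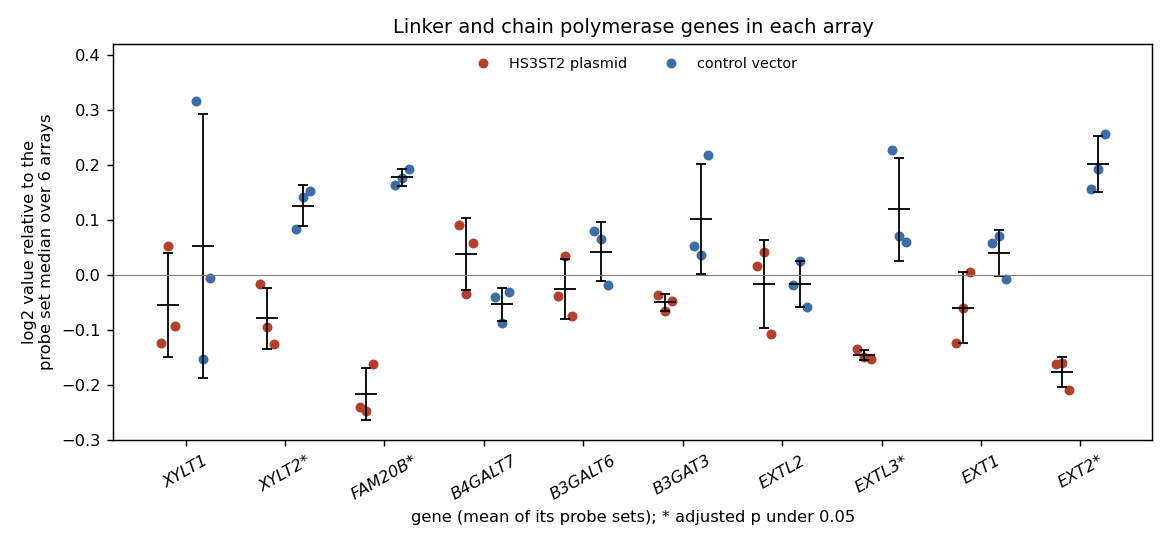
Log2 values of the 10 genes (mean of each gene's probe sets, relative to the median of the 6 arrays) in 3 HS3ST2 arrays and 3 control arrays, with each array as a point and the mean ± SD in black. The HS3ST2 points lie clearly below the control points in FAM20B (-0.25 to -0.16, against 0.16 to 0.19) and EXT2 (-0.21 to -0.16, against 0.16 to 0.26), while XYLT1 and EXTL2 overlap.

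**Figure D2:**
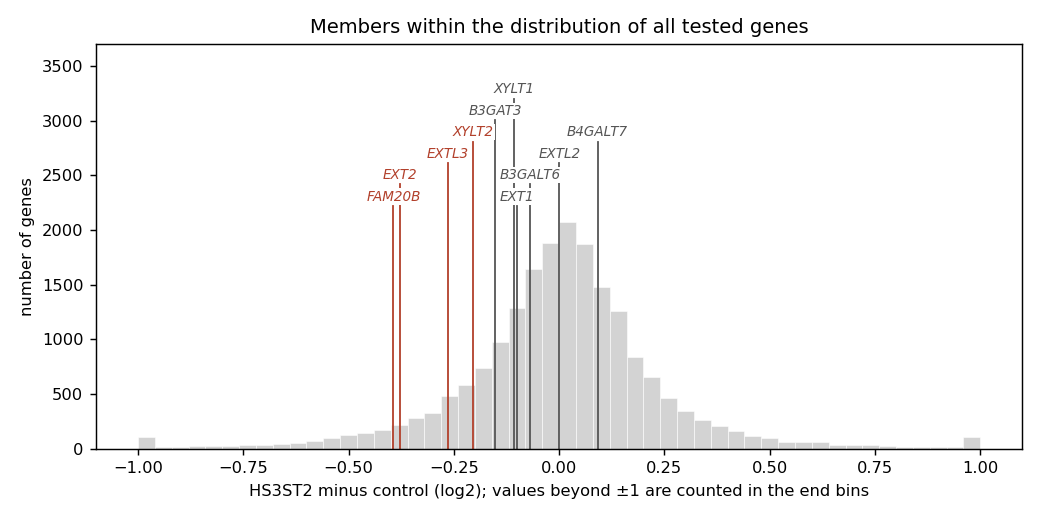
Number of genes (vertical axis) by difference HS3ST2 minus control in log2 (horizontal axis) over 19775 genes, with the 10 members as lines, coloured where called. The 4 called members lie between -0.39 and -0.20, in the lower flank of the distribution, and the members together span -0.39 to 0.091.

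To show what the called genes look like at their starts, the 250 bases before the RefSeq start are printed for the called members that the promoter table holds, with GGGCGG on either strand (the GC box) in capitals. The coordinates are GRCh38.p14, plus strand, at chr17:50345876-50346125 for XYLT2, chr1:179025874-179026123 for FAM20B and chr11:44095428-44095677 for EXT2.
XYLT2: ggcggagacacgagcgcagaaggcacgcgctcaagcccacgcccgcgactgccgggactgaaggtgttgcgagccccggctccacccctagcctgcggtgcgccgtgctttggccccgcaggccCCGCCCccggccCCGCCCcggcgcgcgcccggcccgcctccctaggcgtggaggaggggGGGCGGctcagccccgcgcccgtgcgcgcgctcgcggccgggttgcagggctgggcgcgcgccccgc
FAM20B: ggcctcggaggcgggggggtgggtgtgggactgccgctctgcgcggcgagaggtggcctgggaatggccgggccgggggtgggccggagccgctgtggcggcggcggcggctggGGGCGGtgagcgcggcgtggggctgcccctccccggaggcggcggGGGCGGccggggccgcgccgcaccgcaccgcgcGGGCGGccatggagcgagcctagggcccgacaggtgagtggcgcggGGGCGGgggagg
EXT2: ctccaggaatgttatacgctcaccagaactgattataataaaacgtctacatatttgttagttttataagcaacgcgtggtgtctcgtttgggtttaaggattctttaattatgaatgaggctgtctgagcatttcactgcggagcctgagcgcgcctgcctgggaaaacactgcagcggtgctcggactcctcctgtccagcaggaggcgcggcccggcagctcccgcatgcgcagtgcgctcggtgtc
The XYLT2 window held 3 GC boxes and that of FAM20B 4, while the window before the most upstream of 3 listed EXT2 starts held none and held 1 TATAAA. Windows before the other EXT2 starts each held 2 GC boxes and no TATAAA. The GC content was 81.2% for XYLT2, 83.6% for FAM20B and 52.4% for EXT2, where the median over 27305 promoter entries was 58.0%. Of the 8 members with an entry, 7 held GGGCGG in the first listed window, against 42.3% of all promoters. B4GALT7, which did not pass, held the most (5). TATAAA was found in EXT2 alone of these 8 and in 11.1% of all promoters, CCAAT in 2 of 8 and 33% of all, CACGTG in the same 2 (B3GALT6 and EXTL2) and 6.49% of all, and CCGGAAG in 1 of 8 (B3GAT3) and 8.82% of all. Both strands were searched, and no GC box of the printed windows overlapped another of these motifs. These matches are letters in a window and not measured binding sites.

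The xylosyltransferases, which start the linker, were measured with unequal precision. XYLT2, on chromosome 17, was at -0.017, -0.094 and -0.12 in the HS3ST2 arrays, against 0.083, 0.14 and 0.15 in the control arrays. All HS3ST2 arrays were below all control arrays. The gene fell by 0.20 ± 0.055 log2 (SE, n = 3 per group, 95% interval -0.33 to -0.078, limma adjusted p = 0.0285). This call was lost when HS3ST2 replicate 2, HS3ST2 replicate 3, control replicate 2 or control replicate 3 was left out, with adjusted p = 0.0832 to 0.0939 by limma.

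The 3 probe sets of XYLT2 did not move together. Probe set 219401_at was at -0.20, -0.25 and -0.15 in the HS3ST2 arrays, against 0.15, 0.19 and 0.25 in the control arrays, and fell by 0.39 ± 0.067 log2 (SE, limma adjusted p = 0.00601). Probe set 231550_at was at -0.082, -0.27 and -0.21 in the HS3ST2 arrays, against 0.082, 0.36 and 0.30 in the control arrays, and fell by 0.44 ± 0.094 (adjusted p = 0.0172). Both showed every HS3ST2 array below every control array, and the call of 231550_at was lost without the same 4 arrays as that of the gene. Probe set 1570528_at went the other way without passing, at 0.23, 0.24 and -0.021 in the HS3ST2 arrays, against 0.021, -0.12 and -0.094 in the control arrays (0.22 ± 0.091, adjusted p = 0.165). The difference between 1570528_at and 219401_at within an array was 0.13 to 0.50 in HS3ST2 arrays, against -0.34 to -0.13 in control arrays, a shift of 0.61 log2 (exact permutation p = 0.1, two-sided, the smallest possible). With the median of the probe sets in place of their mean, XYLT2 was at -0.33, so the size for the gene depends on how its probe sets are combined.

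XYLT1, on chromosome 16, could not be placed. Its values were -0.12, 0.053 and -0.092 in the HS3ST2 arrays, against 0.32, -0.15 and -0.0054 in the control arrays. The HS3ST2 arrays were spread less widely than the control arrays (SD 0.094 in HS3ST2 arrays and 0.24 in control arrays), and the groups overlapped. The difference was -0.11 ± 0.12 log2 (95% interval -0.37 to 0.16, limma adjusted p = 0.573), and it was 0.025 without control replicate 1. The interval is wide enough to include a fall as large as that of XYLT2. Whether XYLT1 and XYLT2 differed from each other was not tested.

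FAM20B, on chromosome 1, had the smallest p of the members. It was at -0.24, -0.25 and -0.16 in the HS3ST2 arrays, against 0.16, 0.18 and 0.19 in the control arrays. The gap between the groups was wider than the range within either. FAM20B fell by 0.39 ± 0.051 log2 (SE, n = 3 per group, 95% interval -0.51 to -0.27, limma adjusted p = 0.00111). Its probe set 202916_s_at fell by 0.44 ± 0.061 (adjusted p = 0.00243) and 202915_s_at by 0.34 ± 0.073 (adjusted p = 0.0159). The call of 202915_s_at was lost without HS3ST2 replicate 1, HS3ST2 replicate 2 or control replicate 2 (adjusted p = 0.0553 to 0.0584 by limma), while that of 202916_s_at held with any array left out. Both probe sets separated the groups, and the within-array difference between them gave exact permutation p = 0.2 (two-sided).

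PXYLP1, the phosphatase that removes the phosphate FAM20B adds, was higher. It was at 0.10, 0.13 and 0.10 in the HS3ST2 arrays, against -0.083, -0.13 and -0.094 in the control arrays, and rose by 0.21 ± 0.049 log2 (SE, limma adjusted p = 0.0158). The call was lost without HS3ST2 replicate 2 or control replicate 2. The kinase and the phosphatase thus had opposite signs in this comparison. Only 1 of the 2 PXYLP1 probe sets was called (0.36 for 226925_at, against 0.062 for 239475_at).

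The 3 genes that complete the linker did not pass. B4GALT7, on chromosome 5, adds the first galactose, and was at 0.091, -0.035 and 0.058 in the HS3ST2 arrays, against -0.040, -0.088 and -0.031 in the control arrays. The groups overlapped, and the difference was 0.091 ± 0.056 log2 (95% interval -0.038 to 0.22, limma adjusted p = 0.294). That interval does not reach a fall of the size of FAM20B. B3GALT6, on chromosome 1, adds the second galactose, and was at -0.037, 0.035 and -0.074 in the HS3ST2 arrays, against 0.081, 0.066 and -0.018 in the control arrays (-0.068 ± 0.057, adjusted p = 0.446). The groups of B3GALT6 overlapped as well.

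The probe sets of B3GALT6 were split. Probe set 1553959_a_at was at -0.059, -0.16 and -0.15 in the HS3ST2 arrays, against 0.25, 0.14 and 0.059 in the control arrays, and fell by 0.27 ± 0.076 log2 (SE, limma adjusted p = 0.0446). The other probe sets were at 0.013 ± 0.070 (225733_at) and 0.056 ± 0.11 (226427_s_at), with adjusted p = 0.929 and 0.797. The call of 1553959_a_at was lost whichever array was left out (adjusted p = 0.0501 to 0.127 by limma). With the probe set of largest SD standing for each gene, B3GALT6 was called lower (-0.27, adjusted p = 0.0394).

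B3GAT3, on chromosome 11, adds the glucuronic acid that ends the linker. It was at -0.036, -0.066 and -0.047 in the HS3ST2 arrays, against 0.053, 0.036 and 0.22 in the control arrays. The groups did not overlap, but control replicate 3 was well above the other arrays, and the difference of -0.15 ± 0.063 log2 (95% interval -0.30 to -0.0064) did not pass (limma adjusted p = 0.125). Without control replicate 3 it was -0.094. Probe set 203452_at was at -0.24 ± 0.072 (adjusted p = 0.0635) and 35179_at at -0.067 ± 0.11 (adjusted p = 0.753). The high value of control replicate 3 came from 35179_at (0.35), in which the groups overlapped. In 203452_at that array was at 0.089, between the other control arrays (0.11 and 0.072), and the groups did not overlap.

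EXTL3, on chromosome 8, commits the linker to heparan sulfate. Its values were -0.13, -0.15 and -0.15 in the HS3ST2 arrays, against 0.23, 0.072 and 0.060 in the control arrays. In this average of 2 probe sets the HS3ST2 arrays were nearly alike (SD 0.0096), the control arrays were spread (SD 0.093), and the groups did not overlap. The single probe sets were not alike in the HS3ST2 arrays, and their deviations cancelled in the average. Probe set 209202_s_at was at -0.071, -0.27 and -0.11 there (SD 0.11), and 211051_s_at at -0.20, -0.030 and -0.20 (SD 0.097). EXTL3 fell by 0.26 ± 0.061 log2 (SE, n = 3 per group, 95% interval -0.41 to -0.12, limma adjusted p = 0.0152). Neither of its probe sets passed alone over all probe sets: 209202_s_at was at -0.24 ± 0.074 (adjusted p = 0.0666) and 211051_s_at at -0.29 ± 0.11 (adjusted p = 0.113). The call comes from their average and was lost when the probe set of largest SD was used (adjusted p = 0.0944).

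EXTL2, on chromosome 1, can cap a phosphorylated linker with N-acetylglucosamine and so stop its extension. It has 1 probe set, which was at 0.017, 0.041 and -0.11 in the HS3ST2 arrays, against -0.017, 0.025 and -0.059 in the control arrays. The groups overlapped fully. The difference was 0.00073 ± 0.060 log2 (95% interval -0.14 to 0.14, limma adjusted p = 0.995), an interval that leaves out the sizes seen for FAM20B, EXT2 and EXTL3.

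Of the polymerase subunits, EXT2 was called lower and EXT1 was not called. EXT2, on chromosome 11, was at -0.16, -0.16 and -0.21 in the HS3ST2 arrays, against 0.16, 0.19 and 0.26 in the control arrays. No array crossed between the groups. EXT2 fell by 0.38 ± 0.053 log2 (SE, n = 3 per group, 95% interval -0.50 to -0.26, limma adjusted p = 0.00151). Probe set 202013_s_at fell by 0.44 ± 0.061 (adjusted p = 0.00248) and 202012_s_at by 0.31 ± 0.070 (adjusted p = 0.0196). The call of 202012_s_at survived leaving out control replicate 1 and was lost with each other array omitted (adjusted p = 0.0508 to 0.0684 by limma).

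EXT1, on chromosome 8, the partner of EXT2 in the polymerase, did not pass. It was at -0.12, -0.060 and 0.0059 in the HS3ST2 arrays, against 0.058, 0.071 and -0.0077 in the control arrays, which overlapped. The difference was -0.10 ± 0.057 log2 (95% interval -0.23 to 0.032, limma adjusted p = 0.26). Of its probe sets, 201995_at was at -0.24 ± 0.074 (adjusted p = 0.0626) with no overlap between the groups. The others were at -0.012 ± 0.080 (214985_at) and -0.043 ± 0.073 (230183_at). Within an array, 201995_at minus 214985_at was shifted by -0.23 log2 (exact permutation p = 0.1, two-sided, the smallest possible).

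The balance of the subunits was compared as EXT2 minus EXT1 in each array. It was -0.038, -0.10 and -0.21 in the HS3ST2 arrays, against 0.099, 0.12 and 0.27 in the control arrays. All HS3ST2 arrays lay below all control arrays. The mean was -0.12 ± 0.089 in HS3ST2 arrays and 0.16 ± 0.090 in control arrays (SD, n = 3 each), a difference of -0.28 log2 (exact permutation, p = 0.1, the least value that 20 arrangements can give). Because each probe set was centred, this is a change in the ratio and not the ratio itself. It also depends on how the probe sets of EXT1 are combined. The EXT1 value averages 201995_at (-0.24) with 214985_at (-0.012) and 230183_at (-0.043), which barely moved. EXT2 was not compared with 201995_at alone, so a change in the balance of the subunits is not established.

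**Figure D3:**
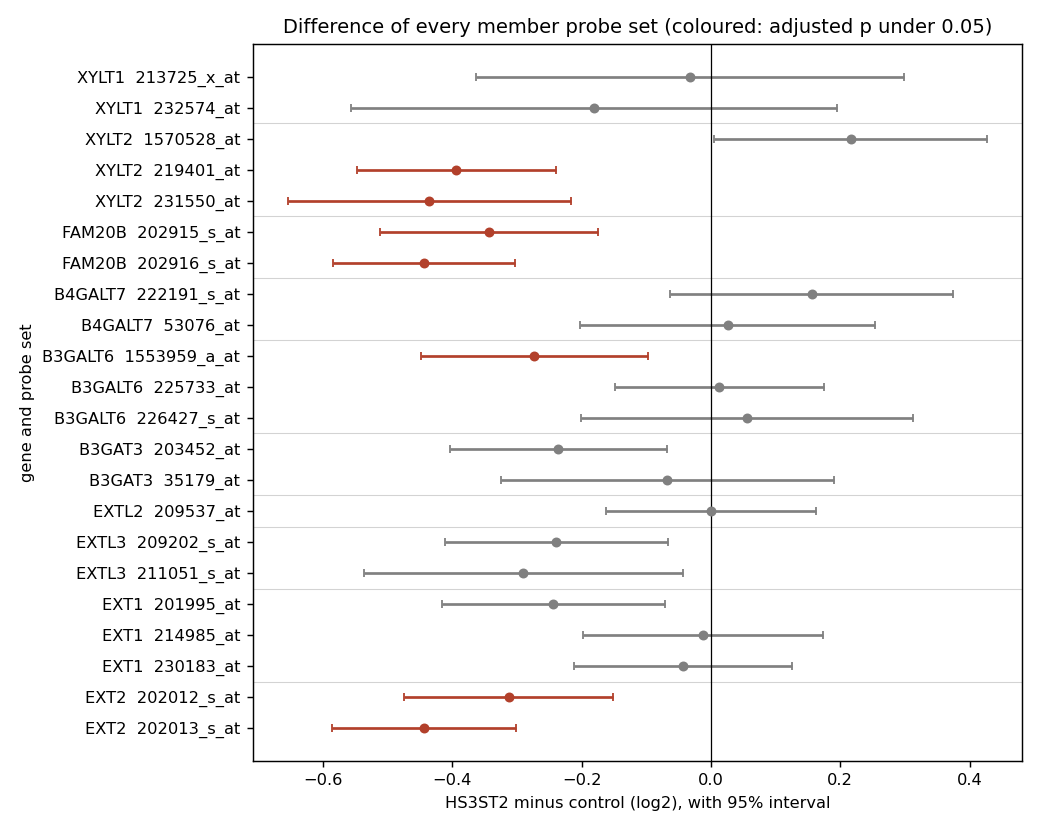
Difference HS3ST2 minus control in log2 (horizontal axis) with its 95% interval for all 22 probe sets (vertical axis, grouped by gene), coloured where called over all probe sets. The probe sets of FAM20B and of EXT2 lie together between -0.44 and -0.31, whereas those of XYLT2 run from -0.44 to 0.22.

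Over the 15 pairs of probe sets of the same gene, the within-array difference separated the groups in 7 pairs, at exact permutation p = 0.1 each before any adjustment over the 15 pairs. That is 46.7% of the members' pairs, where 29.0% of the 42435 such pairs over all genes were separated in either direction. Pairs of 1 gene share probe sets, so the 15 are not independent. These pairs belonged to XYLT2, B3GALT6, EXT1 and EXT2. In EXT2 both probe sets fell and differed in size only. For FAM20B, EXT2 and EXTL3 all probe sets end in _s_at, meaning that probes can match more than 1 transcript. With _x_at and _s_at probe sets left out, these 3 genes had no value, and 1 of the 7 remaining members was called lower (XYLT2).

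The position of the members was examined through the 5 nearest measured genes on each side, in the order of RefSeq on GRCh38.p14. Of 100 such neighbours, 20 were called lower and 5 higher, where 13.0% and 11.5% of all genes were. Around FAM20B, 4 of 10 neighbours were lower and none higher. These were RALGPS2 (-0.29), the nearest measured gene before FAM20B, and the 3 nearest after it, TOR3A (-0.36), ABL2 (-0.28) and SOAT1 (-0.18). The neighbours named here were chosen after their values were seen. Around XYLT2, 3 of 10 were lower, among them the nearest after it, MRPL27, a mitochondrial ribosomal protein gene (-0.70), and EME1, a DNA repair endonuclease subunit gene (-0.38). Around EXT2, 1 of 10 was lower, the tetraspanin gene CD82 (-0.79), and around EXTL3 2 were lower and 1 was higher. All 10 neighbours of XYLT1, which lies with HS3ST2 on the short arm of chromosome 16, had negative differences (-0.47 to -0.0019), and 3 were called lower. Of those not called, MYH11, LOC102723692, RPS15A and ABCC6P1 were only at -0.011 to -0.0019, so their sign carries little weight. A link with the position of HS3ST2 was not tested.

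Genes around the linker and polymerase step were called in both directions, as were genes in general. Over all genes, 11.5% were called higher and 13.0% lower, the shares to set beside the count of each list below. Of 11 measured genes of nucleotide sugar supply, 2 rose and 2 fell, with a median of -0.015 log2. UAP1 and GNPNAT1, which act in making UDP-N-acetylglucosamine, the donor used by EXTL3 and by the polymerase, fell by 0.47 ± 0.050 and 0.47 ± 0.054 log2 (SE, limma adjusted p = 4.1e-04 and 5.89e-04). GFPT1, the first enzyme of the same route, rose by 0.25 ± 0.049, and SLC35B4, a transporter of UDP-xylose and UDP-N-acetylglucosamine named after its value was seen, rose by 0.24 ± 0.053 (adjusted p = 0.00789 and 0.0139). The call of SLC35B4 was lost without HS3ST2 replicate 2 or control replicate 2. Probe sets 202721_s_at (0.14) and 226886_at (0.24) of GFPT1 were not called alone, nor were 225881_at (0.13) and 238418_at (0.18) of SLC35B4. UXS1, which makes UDP-xylose, and UGDH, which makes UDP-glucuronic acid, were at -0.14 ± 0.050 and 0.18 ± 0.078 and did not pass (adjusted p = 0.0755 and 0.138).

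On the chondroitin branch, which uses the same linker, 1 of 6 genes fell and 1 rose, with a median of 0.046. CSGALNACT1, which adds the first N-acetylgalactosamine and so commits the linker to chondroitin sulfate, fell by 0.53 ± 0.055 log2 (SE, limma adjusted p = 3.62e-04). It was at -0.32, -0.23 and -0.29 in the HS3ST2 arrays, against 0.20, 0.24 and 0.31 in the control arrays. Its probe sets differed in size, at -0.88 for 219049_at and -0.18 for 1569387_at, and the second was not called. CHSY1, a chondroitin polymerase, rose by 0.28 ± 0.068 (adjusted p = 0.0195), a call lost without HS3ST2 replicate 2, HS3ST2 replicate 3, control replicate 1 or control replicate 3. The first committing enzymes of both branches, EXTL3 and CSGALNACT1, were thus both lower. CSGALNACT2, the second enzyme of that kind, was at 0.079 ± 0.056 and did not pass (adjusted p = 0.366).

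Of 6 linker phosphatase and Golgi genes, PXYLP1 rose and CANT1 fell, with a median of 0.089. CANT1, a Golgi nucleotidase needed for glycosaminoglycan synthesis, fell by 0.27 ± 0.063 log2 (SE, limma adjusted p = 0.0166), a call lost without HS3ST2 replicate 2, HS3ST2 replicate 3, control replicate 1 or control replicate 3. Its probe set 1554327_a_at (-0.19) was not called alone. Of 15 relatives of the member enzymes that are not members, B4GALT4 rose by 0.36 ± 0.054 and B4GALT3 fell by 0.21 ± 0.062 (adjusted p = 0.00212 and 0.0451), with a median of -0.035. The probe sets of B4GALT3 had opposite signs (-0.48 for 210243_s_at, which was called, and 0.063 for 238312_s_at). The fall of B4GALT3 was called in 1 of the 6 comparisons that left out an array, that without control replicate 3. EXTL1, the remaining exostosin-like gene, was at -0.014 ± 0.11 (adjusted p = 0.945).

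Downstream of the polymerase, 4 of 11 measured chain modification genes were called higher and none lower, with a median of 0.075. Over all genes, 11.5% were called higher and 13.0% lower. HS2ST1, named after its value was seen, was at -0.25 ± 0.088 log2 (SE) and did not pass (limma adjusted p = 0.0778). Every HS3ST2 array lay below every control array in HS2ST1. HS6ST3, a 6-O-sulfotransferase, rose by 0.94 ± 0.074 log2 (SE, limma adjusted p = 1.07e-04), PAPSS2, a synthase of the sulfate donor, by 0.33 ± 0.063, and NDST3, an N-deacetylase and N-sulfotransferase, by 0.42 ± 0.093. The fourth, SLC35B3 (0.17 ± 0.052, adjusted p = 0.0446, named after its value was seen), was called in none of the 6 comparisons that left out an array. Probe set 1552842_at of HS6ST3 (0.22, against 1.04 to 1.39 for its other probe sets) and 203059_s_at of PAPSS2 (0.20) were not called. Of 13 core proteins, SDC3 and GPC6 rose, by 0.42 ± 0.079 and 0.32 ± 0.056, and COL18A1, which carries heparan sulfate on collagen XVIII, fell by 0.31 ± 0.059, with a median of 0.051. Both probe sets of COL18A1 were called, but only 1 of 2 for SDC3 (0.73 for 202898_at, against 0.11 for 1554864_a_at) and for GPC6 (0.52 for 227059_at, against 0.12 for 223730_at). The medians of the 6 lists ran from -0.035 to 0.089, against -0.13 for the 10 members. Whether the members differed from these lists was not tested.

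**Figure D4:**
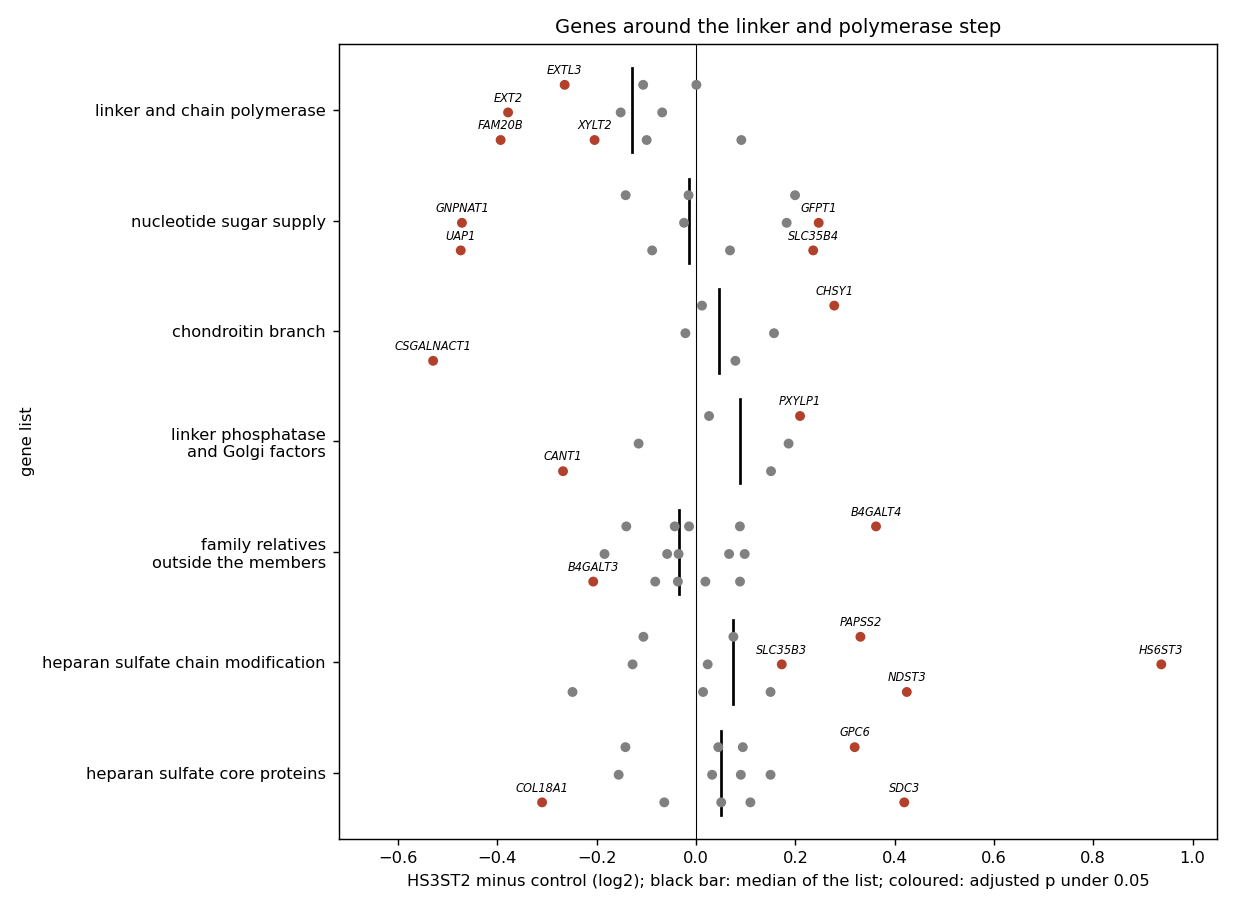
Difference HS3ST2 minus control in log2 (horizontal axis) for the 10 members and for 6 lists of genes around them (vertical axis), with called genes coloured and named and the median of each list as a black bar. The called members all lie left of 0, the called chain modification genes all lie right of it, and the other lists hold called genes on both sides.

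The genes whose 6 values were nearest to those of FAM20B by Euclidean distance, out of 19765 genes, were NEDD1 (distance 0.0462 log2), AUH (0.0518) and COMMD3 (0.0548). Their differences were -0.38 ± 0.051, -0.40 ± 0.049 and -0.41 ± 0.051 log2 (SE, n = 3 per group). The likeness rests on 6 arrays in 2 groups. Because the 3 genes were chosen by these same values, differences close to that of FAM20B follow from the choice.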

How the data were processed

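Total RNA of MDA-MB-231 cells was hybridised to Affymetrix arrays, 3 per group as the titles label them. The deposited values are log2 values, and the submitters' processing notes name RMA, without a version. The median over the 6 arrays was 0 within 1e-05 for all 54675 probe sets, so the authors' values were centred per probe set. Not given in the sources used here are the software of that step, the log base (taken as 2) and a genome build. Arrays give no counts, and their number limits the precision.

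After 62 control probe sets were set aside, 54613 were tested. Platform annotation gave 1 symbol for 41091, several for 1801 and none for 11721. Symbols were updated by gene number, with 41037 matched. Probe sets of a gene were averaged, because centring removed the levels, giving 19775 genes. limma 3.58.1 in R 4.3.3 (lmFit and eBayes, no covariate) compared HS3ST2 with control arrays, and Benjamini-Hochberg adjustment ran over all features. The procedure was checked on simulated arrays. The text names all members, HS3ST2, up to 3 called genes of each list with the smallest p, genes set beside a member of the same step, and 3 genes nearest in pattern. Others are marked as named after their values were seen. Members and lists were chosen with earlier results of these data known. Some listed genes were not analysed here. Promoter windows are from RefSeq (GRCh38.p14).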

Additional observations from a re-analysis of the deposited data

How the results depend on the processing

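All 4 called genes kept a negative sign under every alternative run that gave them a value: a replicate block, each array left out, quantile normalization, median centring, array weights, robust eBayes, other ways of combining probe sets and other thresholds. No member was called higher under any of them. As genes, FAM20B and EXT2 stayed past the threshold wherever they were measured (-0.44 to -0.38 and -0.44 to -0.35). Of the 10 genes, 1 of 7 measured was lower without _x_at and _s_at probe sets, 2 were lower at an adjusted p under 0.01, and 3 to 4 with 1 array left out. Of the probe sets, 3 were lower at 0.01, 10 at 0.1, and 3 to 6 with 1 array left out. Without _x_at and _s_at probe sets 1661 of 17098 genes were lower, against 2571 of 19775. Between 2025 and 2162 genes were lower, and 1729 to 1899 higher, with 1 array left out, and likewise 3285 to 3775 and 3014 to 3405 probe sets. With replicate number as a block, 3 genes and 5 probe sets were lower, since XYLT2 (adjusted p = 0.0672 by limma), 202012_s_at of EXT2 (0.0515) and 1553959_a_at of B3GALT6 (0.0571) were lost. Same-numbered arrays deviated together with r = 0.12, 0.047 and -0.080 over genes, and differently numbered arrays with r from -0.17 to 0.14. Such values cannot decide whether the numbers pair the arrays, since a shared culture need not leave a correlation over genes. EXT2 minus EXT1 was -0.32 to -0.23 with 1 array left out. Signs turned only in differences that never passed. With 1 array left out, XYLT1 was at -0.21 to 0.025 (213725_x_at -0.20 to 0.056, 232574_at -0.33 to 0.00048), EXTL2 at -0.028 to 0.046, 53076_at of B4GALT7 at -0.033 to 0.12, 225733_at and 226427_s_at of B3GALT6 at -0.024 to 0.059 and -0.038 to 0.10, 35179_at of B3GAT3 at -0.13 to 0.050 and 214985_at of EXT1 at -0.062 to 0.036. With array weights EXTL2 was at -0.0031 as a gene and -0.0048 as a probe set, and 213725_x_at at 0.0080. A filter on dim probe sets needs levels and was not run.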
